A study of Homo sapiens with 6 samples.

Results

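The genes described here were 10 genes of cellular iron handling, namely TFRC, STEAP3, SLC11A2, SLC39A14, FTH1, FTL, NCOA4, SLC40A1, ACO1 and IREB2. They were found as the rows of the count files with those gene symbols. All 10 were present among 16907 symbols, and all 10 passed the filter on low counts. The genes had been chosen by measured values of the same contrast between siOGT and siControl. Their differences, and any threshold they pass below, are therefore given as a description and not as a test. LX-2 is an established human line of hepatic stellate cells, which turn into collagen-producing myofibroblasts in the injured liver. The cells were grown in medium with serum and transfected with JetPrime for 72 h with 20 nM of either a control siRNA (siControl) or an siRNA (siOGT) that targets OGT, the enzyme of protein O-GlcNAcylation. There were 3 siControl and 3 siOGT libraries of polyadenylated RNA, made from independent experiments of this single line, and treated and control libraries with the same replicate number were paired. Both groups had gone through transfection, and no untransfected cells were analyzed here.

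Cells take up iron bound to transferrin through the receptor TFRC, reduce it in the endosome and pass it to the cytosol, where it is used, stored in ferritin or exported. The iron regulatory proteins IRP1 (encoded by ACO1) and IRP2 (encoded by IREB2) bind hairpins in mRNAs called iron-responsive elements (IREs) when iron is scarce. Binding in a 5′ untranslated region blocks translation, as in the ferritin mRNAs, whereas binding in the 3′ untranslated region protects the TFRC mRNA from decay. Iron overload of the liver is a recognized setting of fibrosis, in which stellate cells are a main source of collagen. RNA-seq measures the amount of mRNA and not its translation, so that an IRP acting through a 5′ element would not have to be visible in these data.

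Hairpins of the IRE kind are shown for the genes in which a strict search found them, because their place in the mRNA differs between the ferritins and TFRC. Untranslated regions of the protein-coding transcripts in GENCODE 44 (hg38) were searched on the transcript's own strand for the letters CNNNNNCAGTGN, with the 5 bases before and after the 6-base loop CAGTGN able to pair (G to T pairs allowed). The 30 bases around each match are given 5′ to 3′ in the transcript's direction, with the bulged C and the loop in capitals.
FTH1 5′ untranslated region, chr11:61967573-61967602, minus strand: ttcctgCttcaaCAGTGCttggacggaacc
FTL 5′ untranslated region, chr19:48965335-48965364, plus strand: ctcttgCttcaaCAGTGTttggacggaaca
SLC40A1 5′ untranslated region, chr2:189580660-189580689, minus strand: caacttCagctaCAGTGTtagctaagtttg
TFRC 3′ untranslated region, chr3:196050978-196051007, minus strand: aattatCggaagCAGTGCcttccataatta
TFRC 3′ untranslated region, chr3:196050574-196050603, minus strand: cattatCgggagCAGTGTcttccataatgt
TFRC 3′ untranslated region, chr3:196050509-196050538, minus strand: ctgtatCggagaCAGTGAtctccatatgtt
TFRC 3′ untranslated region, chr3:196050462-196050491, minus strand: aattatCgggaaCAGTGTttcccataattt

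The windows of the ferritin genes FTH1 and FTL were identical at 26 of 30 bases. FTH1, FTL and SLC40A1 each had 1 match, in the 5′ untranslated region, and TFRC had 4 matches, in the 3′ untranslated region. No match that met both the letters and the pairing was found in the other 6 genes, which does not show that they lack an IRE. The letters alone occurred in untranslated regions of at least 1 coding transcript of all 10 genes. Over reference transcripts, they occurred in 6.37% of 5′ and 34.5% of 3′ untranslated regions. SLC11A2, which is known for an IRE in the 3′ untranslated region of some of its transcripts, had 4 such places there, with at most 4 of the 5 stem positions paired. ACO1 (3 places) and IREB2 (2 places) likewise reached 4 pairs in the 3′ untranslated region. TFRC had 5 places with the letters in its 3′ untranslated region, of which 4 met the pairing. Its 4 matches are those of this strict search and not a full count of its IREs. Over 1 reference (MANE Select) transcript for each gene, 0.101% of 18763 5′ untranslated regions and 0.644% of 18780 3′ untranslated regions held a match to letters and pairing, which is a description of sequence and not a measurement of binding.

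**Figure D1:**
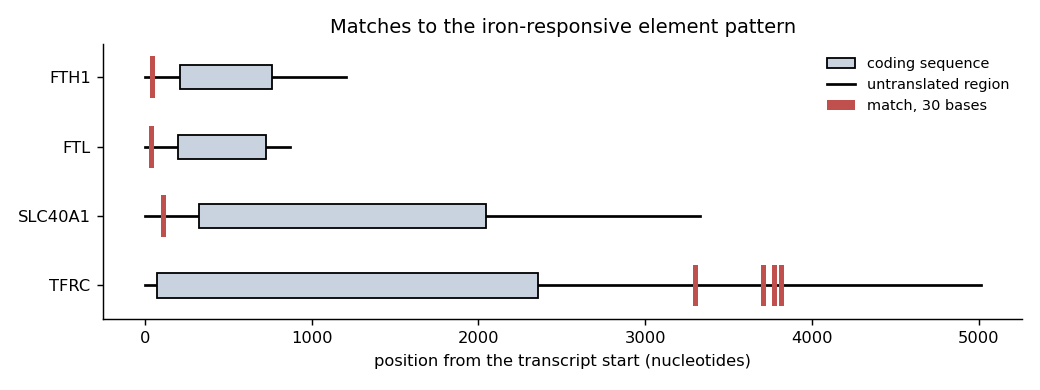
Position of the matches to the iron-responsive element pattern on the reference transcripts of FTH1, FTL, SLC40A1 and TFRC, in nucleotides from the transcript start (x axis). Boxes are coding sequence, lines are untranslated regions and red bars are the 30-base matches. The single matches of FTH1, FTL and SLC40A1 lie before the coding sequence, and the 4 of TFRC lie after it, between nucleotides 3289 and 3834.

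Library totals were close to each other, between 25996770 and 27966801 expected counts, and between 15142 and 15546 genes had a count above 0. OGT itself had 4737, 3489 and 3383 counts in the siControl libraries and 1079, 726 and 782 in the siOGT libraries, with a fitted log2 fold change of -2.18 (SE 0.073, adjusted p = 2.71e-12 by edgeR). The targeted gene was thus lower in each siOGT library than in any siControl library. Levels are given as CPM, the counts of a gene scaled by the library total and the TMM factor to a common library size. The summed level of 8 stellate cell or myofibroblast markers was 6744 to 8187 CPM in siControl and 6021 to 7155 CPM in siOGT, with overlapping ranges. By the rule given below, 5 of the 8 (COL1A1, COL1A2, COL3A1, PDGFRB and THY1) were called lower and 1 (TAGLN) higher. ACTA2 and VIM were not called. Over all genes tested, 12.7% were called lower and 12.7% higher. Markers of hepatocytes (3.34 to 4.48 CPM in sum over the 6 libraries), macrophages (5.26 to 8.42 CPM), endothelial cells (3.0 to 7.86 CPM), cholangiocytes (0.0 to 0.251 CPM) and erythroid cells (0.0 to 0.215 CPM) were low in both groups. The part that the differences in myofibroblast markers have in the values below was not tested. In bulk RNA, fewer cells of one kind and less RNA per cell cannot be told apart.

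By the fitted fold change, TFRC (21.1% lower) and ACO1 (16.8% lower) were lower in siOGT and FTL (20.5% higher) was higher. The remaining 7 genes were not called. A gene was called where its adjusted p-value in the edgeR fit over 14853 genes, with the replicate number as a block, was at most 0.05. By this rule 3 of the 10 genes were called, 1 higher and 2 lower, beside 25.4% of all genes tested (12.7% higher and 12.7% lower). Because the genes were chosen by this contrast, nothing is read from that count. The median log2 fold change over the 10 genes was -0.09 and the median size was 0.17, against 0.01 and 0.19 over all genes tested. The latter include genes with few counts, whereas each of the 10 had a mean of at least 1 CPM. Of the 12373 genes tested with such a mean, 29.9% were called. Their median log2 fold change was 0.0 and their median size 0.16. In 3 of the 10 genes (TFRC, FTL and NCOA4) the CPM values of the groups did not overlap, as was so for 23.9% of all genes tested. With the threshold on the adjusted p-value set to 0.01, the calls were the same 3 genes and 14.0% of all genes.

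The call rested on the pairing. Without the replicate block edgeR called 0 of the 10 genes (2 had an unadjusted p under 0.05), where 0.875% of all genes were called. DESeq2 called TFRC, ACO1 and FTL with the block (16.3% of all genes called) and 0 of the 10 without it (5.72%), again with 2 at an unadjusted p under 0.05. The same 3 genes were called with median-ratio size factors (24.9% of all genes), library totals alone (25.1%), no filter on low counts (24.2%) or the filterByExpr filter (27.9%). Without replicate 1, TFRC alone was called (12.6% of all genes). Without replicate 2 the same 3 genes were called (22.5%), and without replicate 3 IREB2 was called beside them (23.6%).

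**Figure D2:**
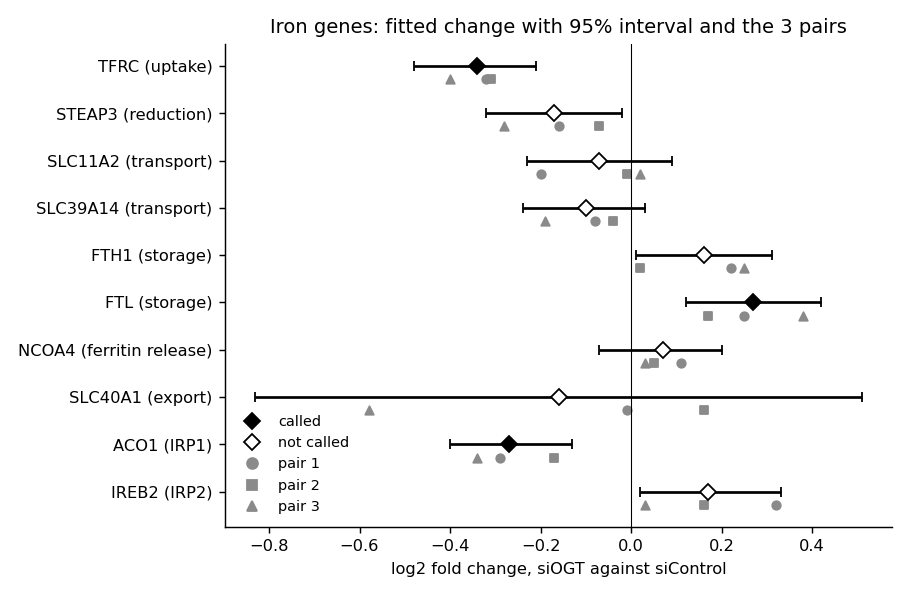
Log2 fold change of siOGT against siControl (x axis) of the 10 genes, as fitted by edgeR with the replicate block. Diamonds are estimates with 95% confidence intervals, filled where the gene was called, and grey symbols are the log2 ratios of the 3 pairs. All 3 pairs lie below 0 for TFRC (-0.40 to -0.31) and ACO1 (-0.34 to -0.17) and above 0 for FTL (0.17 to 0.38), and the interval of SLC40A1 runs from -0.83 to 0.51.

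Levels were compared between genes per kilobase of the union of their exons, as CPM per kb in siControl (mean ± SD, n = 3). The ferritin mRNAs stood far above the rest, FTL at 2730 ± 152 and FTH1 at 2088 ± 392 CPM per kb, and their ranges did not overlap. NCOA4 came next at 53.2 ± 1.88 CPM per kb. SLC39A14 (20.5 ± 3.10) and ACO1 (18.2 ± 2.73) were not separated beyond their spread, and neither were STEAP3 (10.9 ± 1.83, range 8.85 to 12.4) and TFRC (SD 1.16, range 9.19 to 11.4). IREB2 (4.69 ± 0.391) and SLC11A2 (3.40 ± 0.182) followed, and SLC40A1 was lowest at 0.275 ± 0.0794 CPM per kb. The order depended on the length used, since annotated exons of TFRC cover 17376 bases and its reference transcript 5012. Per kilobase of the reference transcript, FTH1 (3478 ± 653) was above FTL (2730 ± 152) with overlapping ranges, and TFRC was at 34.8 ± 4.02 CPM per kb, beside SLC39A14 at 30.4 ± 4.59. Which transcripts these cells use was not measured.

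TFRC, the transferrin receptor that brings iron into the cell (chromosome 3, 196012511 to 196082153, minus strand), was measured at 197, 166 and 160 CPM in siControl libraries 1, 2 and 3 and at 158, 135 and 121 CPM in siOGT libraries 1, 2 and 3. Each siOGT library was below its own pair and below the lowest siControl library, although only just so for siOGT replicate 1 (158 against 160 CPM). Its mean went from 174 ± 20.1 to 138 ± 19.1 CPM (SD, n = 3), a log2 fold change of -0.34 (SE 0.064, 95% confidence interval -0.48 to -0.21). The pairs gave log2 ratios of -0.32, -0.31 and -0.40. Without replicates 1, 2 and 3 in turn, TFRC had log2 fold changes of -0.36, -0.36 and -0.32 and was called each time. These refits reuse the values by which the genes were chosen, so they are a description and not support.

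STEAP3, the endosomal ferrireductase that converts the iron released from transferrin, was at 40.4, 52.5 and 56.4 CPM in siControl and 36.1, 50.0 and 46.5 CPM in siOGT. The groups overlapped, since replicate 1 was low in both, but each siOGT library was below its pair. The log2 fold change was -0.17 (SE 0.071, interval -0.32 to -0.02), which was not called.

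SLC11A2 (DMT1), which carries ferrous iron across the endosomal or cell membrane, was at 35.3, 31.7 and 33.9 CPM in siControl and 30.6, 31.4 and 34.4 CPM in siOGT. The groups overlapped and pair 3 went the other way from pair 1. Its log2 fold change was -0.07 (SE 0.076, interval -0.23 to 0.09) and came to 0.0021 without replicate 1. SLC39A14 (ZIP14), a zinc and iron importer of the cell surface that takes up iron not bound to transferrin, was at 162, 120 and 143 CPM in siControl and 153, 116 and 126 CPM in siOGT. Again the groups overlapped, and all 3 pairs were lower in siOGT by small amounts, with a log2 fold change of -0.10 (SE 0.064, interval -0.24 to 0.03). Among the 4 genes of uptake, TFRC was thus the single one called.

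FTH1 encodes the ferritin heavy chain, which oxidizes iron for storage (chromosome 11, 61959718 to 61967634, minus strand). It was at 3330, 4876 and 4346 CPM in siControl and 3871, 4961 and 5163 CPM in siOGT. Replicate 1 was the lowest library in both groups, and the groups overlapped. The log2 fold change was 0.16 (SE 0.071, interval 0.01 to 0.31), with pair ratios of 0.22, 0.02 and 0.25, and it was not called.

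FTL encodes the ferritin light chain, which aids formation of the iron core (chromosome 19, 48965309 to 48966879, plus strand). It was at 2280, 2324 and 2529 CPM in siControl and 2718, 2617 and 3294 CPM in siOGT. The groups did not overlap, the lowest siOGT library (2617 CPM) being above the highest siControl library (2529 CPM). The mean went from 2378 ± 133 to 2876 ± 365 CPM, a log2 fold change of 0.27 (SE 0.070, interval 0.12 to 0.42), and the pairs gave 0.25, 0.17 and 0.38. Without replicate 1 the value stayed at 0.27 but was no longer called.

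Together the ferritin mRNAs made up 0.561%, 0.705% and 0.686% of all counts in siControl and 0.671%, 0.749% and 0.860% in siOGT. FTH1 ranked between 3 and 9 and FTL between 9 and 17 among all genes of a library by count. Ferritin values carry a further uncertainty, because GENCODE 44 lists 25 pseudogenes named after FTH1 and 16 named after FTL, of which 1 and 0 were rows of the files. RSEM divides reads that match several copies only among the copies in its reference. Whether the other pseudogenes were in that reference is not known here, and neither is where reads from them were counted. Of the exonic bases of FTH1, 63.2% also lie in exons annotated on the opposite strand, those of BEST1 among them, which the strand-specific counting keeps apart.

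NCOA4, the receptor that delivers ferritin to the lysosome and so releases its iron, was at 204, 215 and 218 CPM in siControl and 220, 223 and 223 CPM in siOGT. The groups did not overlap, yet the difference was small. The log2 fold change was 0.07 (SE 0.064, interval -0.07 to 0.20) and was not called. GENCODE 44 lists 4 pseudogenes of NCOA4, none of which was a row of the files.

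SLC40A1, ferroportin, the iron exporter, was at the edge of detection with 21, 32 and 40 counts in siControl and 21, 38 and 25 in siOGT, or 0.786, 1.26 and 1.43 against 0.777, 1.41 and 0.932 CPM. The groups overlapped and the pairs disagreed in direction. Its log2 fold change of -0.16 had an SE of 0.32 and an interval of -0.83 to 0.51, so a difference of the size seen in TFRC was not detectable at this depth. Without replicate 3 the sign turned (0.082).

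ACO1 encodes IRP1, which is a cytosolic aconitase when it holds an iron-sulfur cluster and binds IREs when it does not (chromosome 9, 32384603 to 32454769, plus strand). It was at 161, 131 and 121 CPM in siControl and 131, 117 and 95.8 CPM in siOGT. The groups overlapped, since siOGT replicate 1 (131 CPM) was above siControl replicate 3 (121 CPM) and level with siControl replicate 2 (131 CPM). Each siOGT library was nevertheless below its own pair. The log2 fold change was -0.27 (SE 0.065, interval -0.40 to -0.13), with pair ratios of -0.29, -0.17 and -0.34. Without replicate 1 it was -0.25 and no longer called.

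IREB2 encodes IRP2, which is degraded when iron is plentiful (chromosome 15, 78437431 to 78501453, plus strand). It was at 54.5, 46.1 and 51.4 CPM in siControl and 67.9, 51.7 and 52.7 CPM in siOGT. The high siOGT library was replicate 1, and the other two lay within the siControl range. The log2 fold change was 0.17 (SE 0.072, interval 0.02 to 0.33), with pair ratios of 0.32, 0.16 and 0.03. It was 0.10 without replicate 1, and 0.24 without replicate 3, where it was called.

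**Figure D3:**
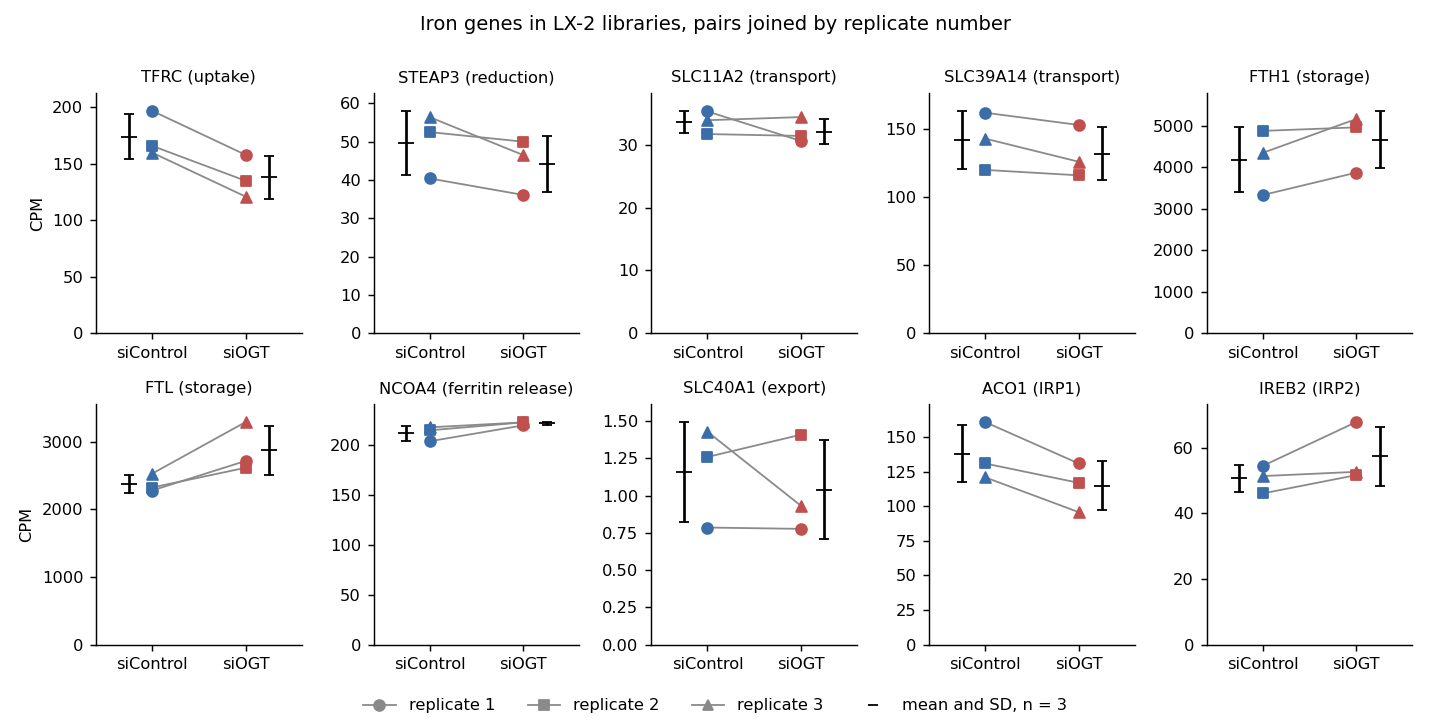
CPM (y axes, each from 0) of the 10 genes in the 3 siControl (blue) and 3 siOGT (red) libraries, with grey lines joining the libraries of a pair and black bars giving the mean and SD of each group. Lines run down in all 3 pairs for TFRC (means 174 and 138 CPM) and ACO1 (138 and 115 CPM) and up for FTL (2378 and 2876 CPM). The share of variance that went with the replicate number was the larger in all of the 10 genes except TFRC, FTL and NCOA4. The replicate number has more levels than the group, which raises its share even without an effect.

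Ratios between the genes within a library set storage against uptake. The ratio of FTL to TFRC was 11.5, 14.0 and 15.8 in siControl and 17.2, 19.5 and 27.3 in siOGT, higher in 3 of 3 pairs and with no overlap between groups. The ratio of FTH1 to TFRC was 16.9, 29.3 and 27.2 against 24.4, 36.9 and 42.8, again higher in 3 of 3 pairs, but the groups overlapped. FTH1 to FTL was 1.46, 2.10 and 1.72 in siControl and 1.42, 1.90 and 1.57 in siOGT, lower in siOGT in each pair, with overlapping groups. For the IRP mRNAs, the ratio of IREB2 to ACO1 was 0.339, 0.352 and 0.424 in siControl and 0.517, 0.443 and 0.549 in siOGT, without overlap. These are ratios of CPM, not of molecules, and they follow from the values of the chosen genes, so they carry no test.

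The 10 genes differed in how much of their variation went with the replicate number. Over the 6 libraries, the replicate number accounted for 89.1% of the variance of log2 CPM of SLC39A14, 81.8% of that of both FTH1 and STEAP3, 75.1% of that of SLC40A1, 62.2% of that of IREB2 and 62.0% of that of ACO1. It accounted for less in TFRC (41.7%), SLC11A2 (38.0%), FTL (35.1%) and NCOA4 (29.9%). The share that went with the group was highest in FTL (58.8%), TFRC (57.4%) and NCOA4 (54.3%). It was 35.4% in ACO1, 13.3% in FTH1 and 8.21% in SLC39A14. The replicate number has more levels than the group and so takes a larger share even where neither has an effect. The shares were not corrected for this, and a larger replicate share alone does not show a larger difference. What differed between the replicate experiments is not given in the sources used here.

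The 9620 genes whose mean reached 10 CPM were ranked by the Pearson correlation of their log2 CPM with that of TFRC and of FTH1 over the 6 libraries. For TFRC the most alike were SGMS2 (r = 0.996), RBM12B (0.994) and OGFRL1 (0.994). OGFRL1, for one, was at 91.7, 75.5 and 74.5 CPM in siControl and 73.7, 62.8 and 59.1 CPM in siOGT. For FTH1 they were MAPK7 (0.997), FLT3LG (0.996) and TM4SF1 (0.995), of which TM4SF1 was at 39.5, 65.3 and 55.0 CPM in siControl and 50.1, 68.7 and 69.7 CPM in siOGT. With 6 libraries in 3 pairs and so many genes searched, values this high are a description of the same libraries.

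Other genes of iron metabolism were taken from lists of textbook roles, which were drawn up by role but with earlier results of these data known, so their counts are not independent evidence. Of 90 such genes, 85 were in the files and 79 were tested, of which 21 were called (26.6%, 7 higher and 14 lower), beside the 25.4% over all genes. Without the replicate block edgeR called 0 of them (13 had an unadjusted p under 0.05), DESeq2 called 12 with the block and 3 without it, and edgeR called 12 without replicate 1. The median log2 fold change of the 79 genes was -0.04 and the median size 0.15. The counts of each list below stand beside the same 25.4%, or 29.9% of the genes whose mean reached 1 CPM.

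Of 15 tested genes of uptake, ferrireduction and iron chaperones, 2 were called, both lower. HFE, the hemochromatosis protein that binds the transferrin receptor, fell from 6.10 ± 0.686 to 4.56 ± 0.290 CPM (log2 fold change -0.42, SE 0.14, adjusted p = 0.0409), a call lost without any 1 replicate (-0.46, -0.32 and -0.48) and with library totals alone or DESeq2. SLC22A17, a receptor for lipocalin 2, fell by 0.32 on the log2 scale (SE 0.069, adjusted p = 0.00269), and without replicate 1 it stood at -0.28, no longer called. SLC39A8 (ZIP8), the close relative of SLC39A14, was at 16.6 ± 3.51 CPM in siControl and 14.3 ± 1.89 CPM in siOGT (-0.20, SE 0.094, adjusted p = 0.126). TFR2, the second transferrin receptor, was at 3.82 ± 0.908 and 2.95 ± 0.976 CPM (-0.39, SE 0.18, adjusted p = 0.127), so that its estimate was close to that of TFRC and its error larger. Neither passed the threshold.

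In the list of export and the hepcidin axis 4 of 10 genes could be tested, and 1 was called. NEO1, neogenin, a partner of hemojuvelin, fell from 103 ± 2.84 to 85.5 ± 6.75 CPM (-0.27, SE 0.065, adjusted p = 0.00487), with -0.24 and no call without replicate 1. The transcripts of hepcidin (HAMP, 5 counts over the 6 libraries), ceruloplasmin (CP, 1 count) and BMP6 (3 counts) were below the filter.

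Of 4 tested genes of IRP turnover and ferritinophagy, 1 was called. RB1CC1 (FIP200), a subunit of the kinase complex that starts autophagy, rose from 55.0 ± 1.41 to 68.1 ± 1.16 CPM (0.31, SE 0.066, adjusted p = 0.00245), with pair ratios of 0.30, 0.30 and 0.32. FBXL5, the ubiquitin ligase subunit that marks IRP2 for degradation when iron is present, was at 62.4 ± 3.22 and 60.6 ± 2.02 CPM (-0.04, SE 0.070, adjusted p = 0.702). Among 5 tested genes of other mRNAs with reported IREs, EPAS1 (HIF-2α) alone was called. It fell from 387 ± 51.3 to 308 ± 73.0 CPM (-0.34, SE 0.074, adjusted p = 0.0025), lower in 3 of 3 pairs. The groups overlapped, since siOGT replicate 1 (387 CPM) was above siControl replicates 2 and 3 (357 CPM each). Without the replicate block, neither edgeR nor DESeq2 called EPAS1.

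Of the 19 genes of heme synthesis, breakdown and transport, 8 were called, 2 higher and 6 lower. This was 42.1%, beside 25.4% of all genes tested and 29.9% of those whose mean reached 1 CPM. The list was drawn up with earlier results known, so nothing is read from that share. HMOX1, heme oxygenase 1, which frees iron from heme, rose from 37.2, 30.4 and 36.0 CPM to 75.6, 36.1 and 50.6 CPM (0.60, SE 0.10, adjusted p = 0.000481). All 3 pairs were higher, but siOGT replicate 1 was far above the other two, and without replicate 1 the log2 fold change was 0.37, still called. SLC48A1, a heme transporter, rose by a log2 fold change of 0.20 (SE 0.068, adjusted p = 0.0399), with 0.22 and 0.12 and no call without replicates 1 and 3. The largest decreases were those of PPOX (-0.60, SE 0.12, adjusted p = 0.00198) and FECH (-0.36, SE 0.081, adjusted p = 0.00331), which catalyze the last steps of heme synthesis, and of the exporter ABCG2 (-0.56, SE 0.14, adjusted p = 0.00657). DESeq2 with the block called neither ABCG2 (-0.57) nor SLC48A1 (0.19). The remaining 3, ALAD, UROD and PGRMC1, are named after their values were seen and lay between -0.24 and -0.18.

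Of the 22 genes of mitochondrial iron import and iron-sulfur cluster assembly, 6 were called, 2 higher and 4 lower. FDXR, the ferredoxin reductase, fell by 0.54 on the log2 scale (SE 0.10, adjusted p = 0.00102), and ABCB10, a partner of the iron importer mitoferrin, fell by 0.44 (SE 0.098, adjusted p = 0.00343). IBA57, a late assembly factor, also fell by 0.44 (SE 0.12, adjusted p = 0.0145), with -0.41 and no call without replicate 3. The fourth gene called lower was FDX1 (-0.35, SE 0.11, adjusted p = 0.0319), named after its value was seen. NFU1, a carrier of finished clusters, rose by 0.26 (SE 0.077, adjusted p = 0.0184) and lost its call without replicate 1 (0.31) or 3 (0.20), and ISCA1, which works with IBA57, rose by 0.25 (SE 0.083, adjusted p = 0.0321), with 0.12 and no call without replicate 3. DESeq2 with the block called none of IBA57 (-0.44), NFU1 (0.26) and ISCA1 (0.25). In the cytosolic assembly list 2 of 10 genes were called, both higher. These were the electron carrier CIAPIN1 (0.32, SE 0.069, adjusted p = 0.00264) and the scaffold protein NUBP1 (0.26, SE 0.078, adjusted p = 0.022), the latter with 0.24 and 0.21 and no call without replicates 1 and 2. NUBP1 was also not called by DESeq2 with the block (0.25).

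**Figure D4:**
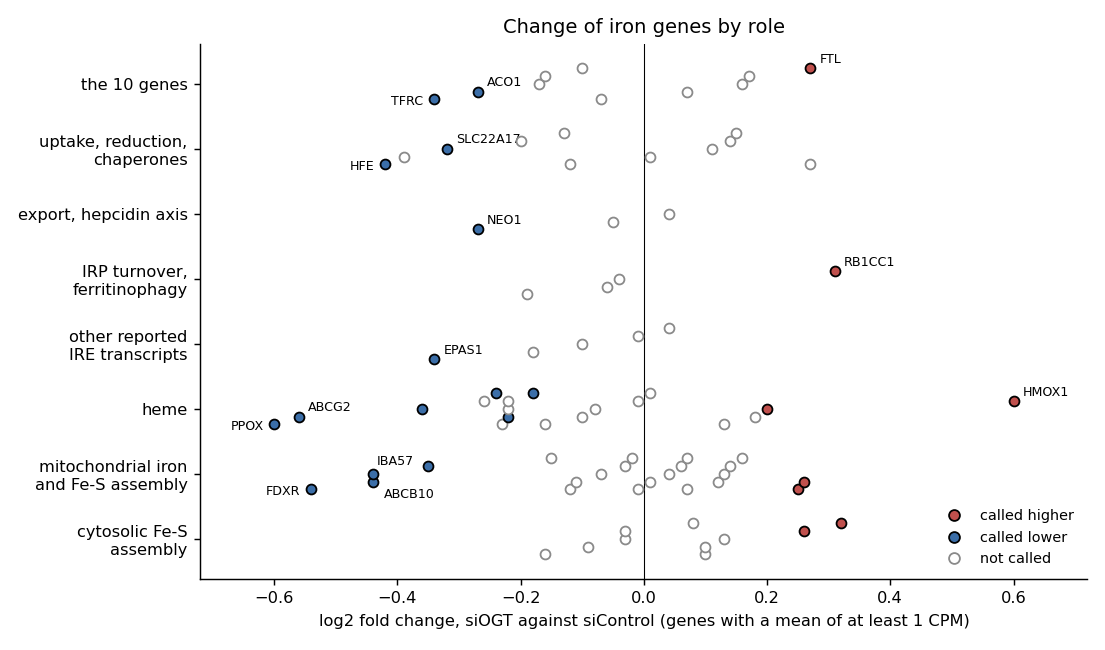
Log2 fold change of siOGT against siControl (x axis) for the 10 genes and for the other iron genes by role (y axis, points spread vertically for legibility), for genes whose mean reached 1 CPM. Filled points are called genes, red for higher and blue for lower, and some called genes are named. Called genes of both directions are seen among the 10 genes, in the heme list (2 higher, 6 lower) and in the mitochondrial list (2 higher, 4 lower).

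Genes that share the IRE letters and pairing with the ferritins, SLC40A1 or TFRC were looked up after the values of those 4 were known. Of 16 other genes with a match in the 5′ untranslated region, 12 were tested and 2 were called, both lower (16.7%), namely ADAR (-0.31, adjusted p = 0.00497) and ENC1 (-0.25, adjusted p = 0.0148). Of 120 other genes with a match in the 3′ untranslated region, 105 were tested, of which 20 were called higher and 13 lower (31.4%), with a median log2 fold change of 0.02. Both shares stand beside 25.4% over all genes tested and 29.9% over those whose mean reached 1 CPM. A match does not show that an IRP binds there.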

How the data were processed

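RNA-seq of 6 LX-2 libraries (3 siControl, 3 siOGT) was analyzed. Per the study's methods and the submitters' processing notes, paired-end reads of a stranded, oligo-dT-enriched library were aligned to hg38 with Bowtie2 2.3.5.1 and counted per gene with RSEM 1.3.1. The authors deposited expected counts per library (estimated counts, not normalized), of which 85.8% to 87.7% in a library were exactly whole as written (zeros included, no tolerance). Their table of a DESeq2 1.36.0 comparison (fold changes, adjusted p-values, baseMean) was not used.

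Expected counts were rounded, genes with a total below 10 removed (2054 removed, 14853 tested) and libraries scaled by TMM (0.979 to 1.02). The test was edgeR's quasi-likelihood F test (version 4.0.16 in R 4.3.3), two-sided, with a term for the replicate number and Benjamini-Hochberg adjustment over all genes tested. CPM use the TMM-scaled library sizes, and errors of means are SD (n = 3). SEs and 95% intervals were derived from the F statistic, and pair ratios used a prior count of 2. The pipeline was tested on simulated data. The pairing is that of the study. Deviations from group means correlated by 0.69, 0.53 and 0.33 between same-numbered libraries over 12373 genes, which are not independent replicates. No 2 replicates of a group agreed within counting noise (chi-square per degree of freedom at least 19.4).

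The 10 genes and the gene lists were chosen with earlier results of these data known. Other genes were named by rule: in each list the called genes whose mean reached 1 CPM, up to 3 in each direction, besides OGT, SLC39A8, TFR2, FBXL5, HMOX1 and EPAS1, and the 3 genes most alike TFRC and FTH1. A further gene of the rule is not reported here. Gene models came from GENCODE 44, which held 15906 of the 16907 symbols, and may differ from those behind the counts. DESeq2 1.42.0, other scalings, filters, thresholds and leaving out each replicate were alternatives.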

Additional observations from a re-analysis of the deposited data

How the results depend on the processing

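Pairing was the choice that mattered most. Without the replicate block, edgeR called 130 genes in place of 3766, 0 of the 10 iron genes in place of 3 (2 at an unadjusted p under 0.05) and 0 of the other iron genes in place of 21 (13 at an unadjusted p under 0.05). DESeq2 called 2415 genes, 3 of the 10 and 12 of the others with the block, and 849, 0 and 3 without it. With an adjusted p-value threshold of 0.01 the counts were 2083, 3 and 11. Leaving out each replicate in turn gave 1817 to 3408 genes, 1 to 4 of the 10 and 12 to 18 of the others, the lowest counts being those without replicate 1. The cause of these differences was not tested, although leaving out a pair also removes samples. Other scalings and filters kept each count within 1.5 times its value, and moved the median of all genes by -0.003 (median-ratio) and 0.022 (library totals).

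In 100 refits the log2 fold changes of the 10 genes moved by less than the SD between their pairs. The refits share most or all of the libraries, so shifts below that SD were likely beforehand, and no stability is read from them. For the other named genes, 157 refits kept direction and side of the threshold and 52 lost the call. The direction turned in 1, that of FBXL5 without replicate 2 (0.011), which was not called in any refit and ranged from -0.11 to 0.011 when a replicate was left out. The lengths used change the order of levels between genes, as given above for the exon union and the reference transcript, the latter chosen after seeing the data. With 21 to 40 counts a library, depth limits SLC40A1 the most.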
